A study of Mus musculus with 4 samples.

Results

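Of 48 genes of glucose uptake, glycolysis, lactate handling, pyruvate oxidation, the pentose phosphate pathway and the tricarboxylic acid (TCA) cycle, 45 could be tested, among 13565 genes tested in all. The genes were taken by name, using probe sets whose platform annotation gives exactly 1 gene symbol, and the probe set with the highest mean over the 4 arrays stood for each gene. Hk2 and Slc2a1, which trap and import glucose, were higher on the arrays of transforming growth factor beta 1 (TGF-beta1) than on those of low glucose, and Aldoc, Pfkm, Pdk1, Pdk2, Pcx and Idh1 were lower. No probe set names Gpi1 or Eno1 alone, so neither was measured here. Slc2a3, which encodes the transporter GLUT3, was below the filter on dim probe sets, with its brightest probe set at a mean log2 value of 6.81.

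The study hybridised total RNA described as that of mouse mesangial cells, the contractile cells that hold the glomerular capillaries together, to 4 one-colour arrays. The 2 groups were TGF-beta1 (2 arrays) and low glucose (2 arrays), as named in the sample titles. The labels state no dose, duration, glucose concentration, strain or age, and do not say how much glucose the TGF-beta1 cells had. TGF-beta1 and a change of medium glucose cannot be told apart in this design, which bears on every gene of glucose metabolism below. The question posed by the comparison is which genes TGF-beta1 regulates in these cells.

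Cells import glucose through facilitative transporters of the GLUT family and hold it by phosphorylation with a hexokinase. Glycolysis then yields pyruvate, which is reduced to lactate or enters the mitochondrion, where the pyruvate dehydrogenase complex feeds acetyl groups into the TCA cycle. Pyruvate dehydrogenase kinases switch that complex off, pyruvate carboxylase makes oxaloacetate instead, and the pentose phosphate pathway diverts glucose 6-phosphate to make NADPH and ribose. In cultured rat mesangial cells, glucose entry through GLUT1 is known to drive matrix production, and TGF-beta1 is a central cytokine of matrix accumulation in the diabetic glomerulus.

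Median deposited intensity, on a linear scale, was 80.3 and 99.6 on the TGF-beta1 arrays and 96.8 and 78.3 on the low glucose arrays. All differences below are TGF-beta1 minus low glucose on the log2 scale, after adding a pseudocount of 46.88 and quantile normalisation, so they understate the change of dim genes. The arrays sorted by 18 hybridisation spike-in probe sets into array pair 1 (TGF-beta1 replicate 2 and low glucose replicate 1) and array pair 2 (TGF-beta1 replicate 1 and low glucose replicate 2). Spike-ins differed by 0.0533 and 0.0887 (mean absolute log2 difference) within the pairs and by at least 0.969 between them. "Rose" and "fell" are kept for genes whose limma adjusted p, with the array pair as a block, was under 0.05. Values after ± are standard errors of that fit, with n = 2 arrays per group. Whether arrays of one kind represent independent cultures is unstated, so the p-values reflect array-to-array spread that may be purely technical.

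The cell labels were set against marker genes. None of 7 mesangial markers was in the top 25% of probe sets by brightness. Their means ran between 6.45 and 7.54, among them Pdgfrb at 7.17 and Acta2 at 7.45. Of 6 tubule markers 4 were in the top 25%, with Cdh16 at 10.83 and Aqp1 at 10.67, while Slc34a1 and Umod were at 6.61 and 7.06. Of 5 macrophage markers 1 was, the receptor gene Csf1r at 10.36. The others, Cd68, Adgre1, Itgam and the leukocyte gene Ptprc, were between 6.22 and 7.12. Of 4 podocyte markers with a probe set 1 was, Podxl at 8.52, and of 5 endothelial markers 0 were. Bright levels of the defining mesangial markers were therefore absent, against the cell type in the labels. Of the tested markers, tubule genes fell in 3 of 5 cases, namely Aqp1 by 0.67 ± 0.076, Cdh16 by 0.31 ± 0.074 and Lrp2 by 0.29 ± 0.077. Among the others Acta2 rose by 0.32 ± 0.066 (1 of 5 tested mesangial markers), Csf1r fell by 0.38 ± 0.080 (1 of 4 tested macrophage markers), and of 3 tested podocyte markers Podxl rose by 0.23 ± 0.071 and Synpo fell by 0.58 ± 0.065. Of the endothelial markers 4 of 5 were below the filter, and the tested one, Kdr, did not pass. Over all tested genes 7.89% rose and 10.6% fell. The summed linear level of the tubule markers was 4020 and 3999 in TGF-beta1, against 5637 and 5046 in low glucose. That of the mesangial markers was 669.1 and 637.7 in TGF-beta1, against 597.2 and 603.0 in low glucose. Linear sums follow the brightest genes, in tubule Cdh16 and Aqp1, and of the mesangial markers only Acta2 passed. Both sums include markers below the filter, Slc34a1 for tubule and Gata3 and Thy1 for mesangial cells. The part of these cell markers in the results below was not tested. In bulk RNA, fewer cells of a type and less RNA per cell cannot be told apart.

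Over the 45 tested members 2 rose, 6 fell and 37 did not pass. In the same fit 18.5% of all tested genes passed in either direction, 7.89% higher and 10.6% lower, so the members' share of 17.8% was close to the background. The median difference over the members was -0.08, against 0.00 over all tested genes, and 36 of the 45 members lay below 0, against 50.1% of all genes. In 9 members the groups did not overlap, 2 with TGF-beta1 above and 7 with it below. That pattern occurred in 20.9% of all genes, 9.83% above and 11.1% below. The calls rest on the block and on a standard error that depends on brightness alone. Without the block limma called 0 members and 0 of all genes, with 3 members (Hk2, Aldoc and Idh1) at an unadjusted p under 0.05 against 2.0% of all genes.

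**Figure D1:**
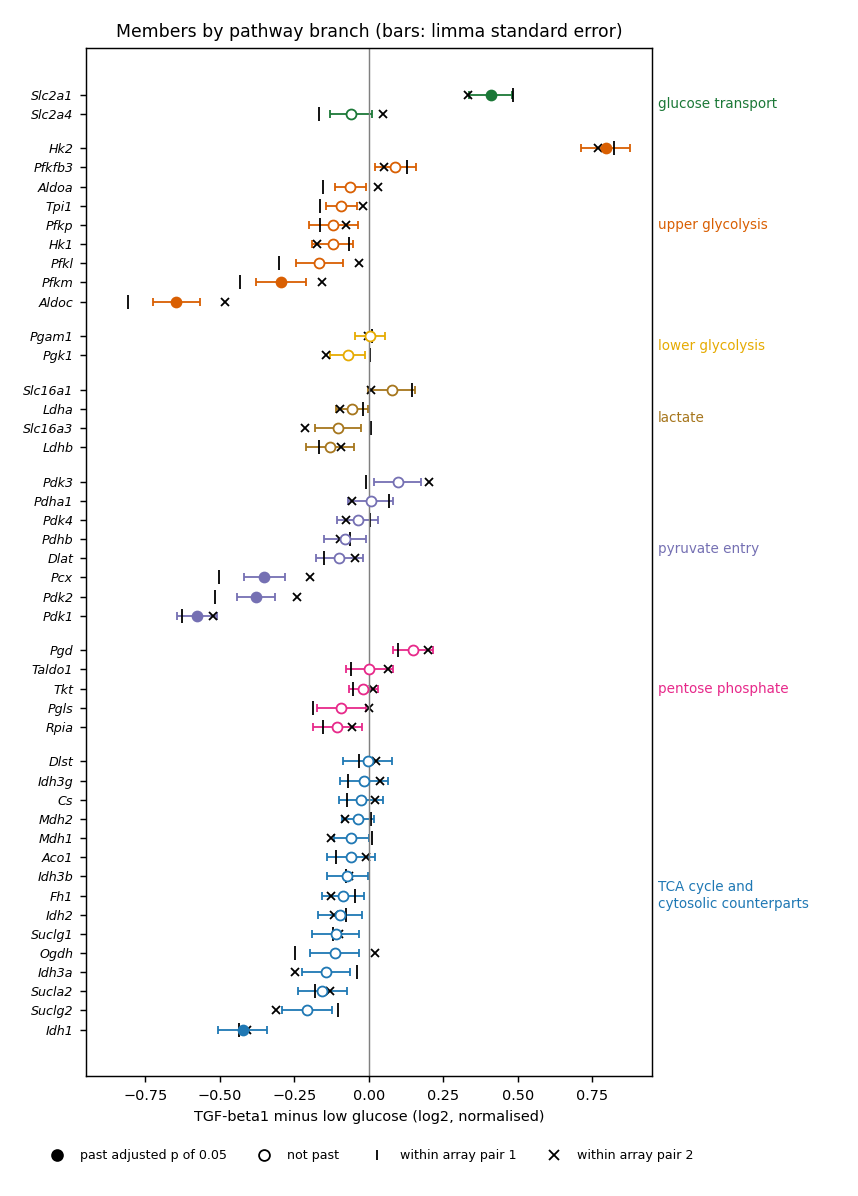
Difference between TGF-beta1 and low glucose for each of the 45 tested members, grouped down the page by pathway branch, on the log2 scale (x axis). Circles are fitted differences with limma standard errors, filled where the adjusted p was under 0.05, and the ticks and crosses are the differences within array pair 1 and array pair 2. Hk2 (0.79) and Slc2a1 (0.41) stand to the right of 0, and Aldoc (-0.65), Pdk1 (-0.58) and Idh1 (-0.42) to the left, while most others lie within 0.2 of 0.

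Of the 2 tested glucose transporters, Slc2a1 rose and Slc2a4 did not pass. Of all tested genes 7.89% rose and 10.6% fell. Slc2a1, which encodes GLUT1, the transporter of basal glucose uptake, had normalised log2 values of 11.30 and 10.92 in TGF-beta1, against 10.43 and 10.97 in low glucose. The groups overlapped, since TGF-beta1 replicate 2 lay just below low glucose replicate 2, but within each pair the TGF-beta1 array was the higher. The difference was 0.41 ± 0.073 (1.33-fold; limma adjusted p = 7.87e-07), with 0.48 in pair 1 and 0.33 in pair 2. Both other probe sets of Slc2a1 rose as well, by 0.56 ± 0.079 and 0.52 ± 0.080. Slc2a4, the insulin-responsive GLUT4 of muscle and fat, was at -0.06 ± 0.070, with opposite signs in the pairs.

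In upper glycolysis, from hexokinase to triose phosphate, 1 of 9 tested genes rose and 2 fell, against 7.89% and 10.6% of all tested genes. Hk2, which has 1 probe set and encodes an inducible hexokinase that phosphorylates glucose at the mitochondrial surface, had log2 values of 10.39 and 10.54 in TGF-beta1, against 9.72 and 9.63 in low glucose. Both TGF-beta1 arrays were above both low glucose arrays, and the gap between the groups was several times the spread within either. As deposited, its intensities were 1289 and 1469 in TGF-beta1, against 817.3 and 733.6 in low glucose. The difference was 0.79 ± 0.082 (1.73-fold; limma adjusted p = 3.71e-20), with 0.82 and 0.77 within the pairs. Without the block its unadjusted p in limma was 0.00291, which did not pass after adjustment. Hk1, the constitutive hexokinase, was at -0.12 ± 0.070 without passing, and whether the hexokinases differ was not tested.

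Aldoc, the aldolase isoform best known from brain, had log2 values of 10.27 and 10.04 in TGF-beta1, against 10.85 and 10.75 in low glucose. No TGF-beta1 array reached a low glucose array. Aldoc fell by 0.65 ± 0.079 (1.57-fold; limma adjusted p = 1.70e-14), with -0.81 and -0.48 within the pairs. Its other probe set was too dim to be tested and was at -0.32. Aldoa, the ubiquitous aldolase, was at -0.06 ± 0.052.

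Phosphofructokinase commits hexose phosphate to glycolysis, and of its subunit genes only Pfkm, the muscle form, passed. Pfkm had log2 values of 9.52 and 9.46 in TGF-beta1, against 9.89 and 9.68 in low glucose. The groups did not overlap, but the gap was small in pair 2. Pfkm fell by 0.30 ± 0.083 (limma adjusted p = 0.00368), with -0.43 in pair 1 and -0.16 in pair 2, which is the value when either array of pair 1 is left out. Pfkl and Pfkp were at -0.17 ± 0.079 and -0.12 ± 0.082. Pfkfb3, whose product makes the activator fructose 2,6-bisphosphate, was at 0.09 ± 0.069, and Tpi1 at -0.09 ± 0.051.

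No tested gene of lower glycolysis or lactate handling passed on its brightest probe set, against 18.5% of all tested genes. Pgk1 and Pgam1, which act between triose phosphate and enolase, were at -0.07 ± 0.059 and 0.00 ± 0.050, with every array of Pgam1 between 12.31 and 12.33. Ldha, the lactate dehydrogenase subunit linked to pyruvate reduction, was at -0.06 ± 0.054. The monocarboxylate carriers Slc16a1 and Slc16a3 were at 0.08 ± 0.078 and -0.10 ± 0.078. Ldhb, the other lactate dehydrogenase subunit, was at -0.13 ± 0.080 on its brightest probe set. Its probe sets disagreed in size, with -0.17, -0.24 and -0.60 on the others, of which the last 2 passed when every kept probe set was tested. A fall in Ldhb thus depends on which probe set is read.

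**Figure D2:**
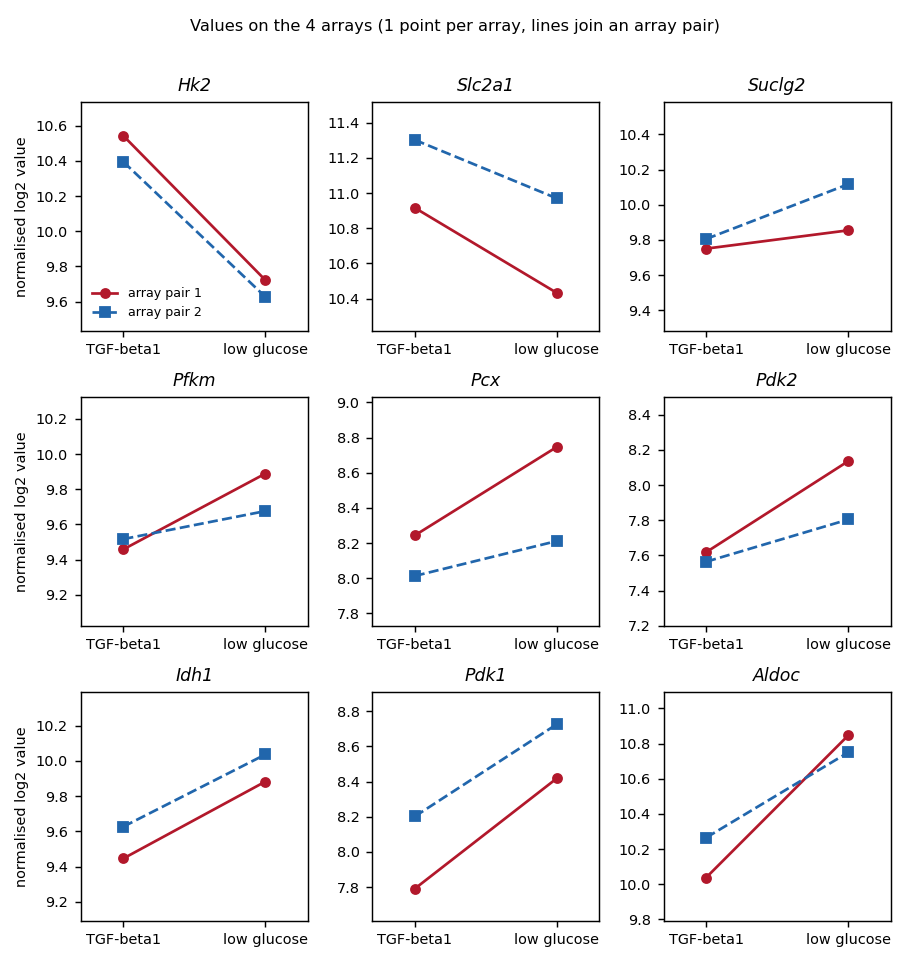
Normalised log2 value of each of 9 genes on the 4 arrays, with TGF-beta1 on the left and low glucose on the right of each panel. Lines join the arrays of a pair (solid for pair 1, dashed for pair 2), every panel spans the same log2 range, and all lines of Hk2 and Slc2a1 run down to the right while those of the other 7 genes run up.

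The promoters of the largest changes in each direction are shown, namely those of Hk2, Slc2a1, Aldoc and Pdk1. These genes were picked by the size of their difference and are not a full list of any factor's targets. All are known as targets of hypoxia-inducible factors, whose part here was not tested. Each window spans a RefSeq start in GRCm38.p6 and lies mostly upstream of it, read 5′ to 3′ on the gene's strand: Hk2 at chr6:82774405-82774704 (minus), Slc2a1 at chr4:119108495-119108794 (plus), Aldoc at chr11:78322823-78323122 (plus) and Pdk1 at chr2:71872974-71873273 (plus). Aldoc and Pdk1 each have a further, downstream window that is not shown. Capitals mark ACGTG or GCGTG, the core letters those factors are known to bind, on either strand.
Hk2: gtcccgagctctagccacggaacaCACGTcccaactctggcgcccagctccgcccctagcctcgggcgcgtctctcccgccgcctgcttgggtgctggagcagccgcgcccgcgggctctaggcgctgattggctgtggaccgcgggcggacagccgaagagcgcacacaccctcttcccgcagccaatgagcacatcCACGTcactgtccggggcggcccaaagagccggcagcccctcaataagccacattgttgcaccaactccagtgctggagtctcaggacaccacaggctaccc
Slc2a1: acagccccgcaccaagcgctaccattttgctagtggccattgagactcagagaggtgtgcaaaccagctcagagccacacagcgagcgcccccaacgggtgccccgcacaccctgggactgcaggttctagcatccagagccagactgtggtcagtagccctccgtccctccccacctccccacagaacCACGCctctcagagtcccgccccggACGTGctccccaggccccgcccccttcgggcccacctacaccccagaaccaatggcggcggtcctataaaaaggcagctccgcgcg
Aldoc: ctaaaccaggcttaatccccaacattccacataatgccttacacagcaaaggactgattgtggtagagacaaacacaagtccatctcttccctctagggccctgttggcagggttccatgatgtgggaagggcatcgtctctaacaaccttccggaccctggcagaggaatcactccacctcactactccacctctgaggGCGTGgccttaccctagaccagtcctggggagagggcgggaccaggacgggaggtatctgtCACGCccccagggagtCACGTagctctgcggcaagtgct
Pdk1: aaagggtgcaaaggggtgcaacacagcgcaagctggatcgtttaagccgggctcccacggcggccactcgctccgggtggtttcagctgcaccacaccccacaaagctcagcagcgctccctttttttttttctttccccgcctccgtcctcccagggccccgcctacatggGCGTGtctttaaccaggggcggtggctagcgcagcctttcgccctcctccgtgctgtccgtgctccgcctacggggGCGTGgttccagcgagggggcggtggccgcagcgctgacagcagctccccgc
Hk2 held 2 matches to ACGTG and 0 to GCGTG, Slc2a1 held 1 of each, Aldoc held 1 and 2, and Pdk1 held 0 and 2. The longer motif CACGTG, which contains ACGTG, had 0 matches in these windows. It had 1 match in a window of each of Pdk2, Pfkm and Pcx, which also fell. Of all windows of members 14.52% held CACGTG, against 9.50% of those of all tested genes. Each of the windows shown held ACGTG or GCGTG. Of 62 windows of 43 members, 27 (43.55%) held ACGTG and 35 (56.45%) held GCGTG. Over the 13899 windows of all tested genes the shares were 24.5% and 47.8%. Counted by gene, 19 and 28 of the 43 members held them in any of their windows. That count was not made for all genes and cannot be set against shares of windows. Whether the members differ from all genes was not tested. The letters describe these windows only, and nothing here measures binding.

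At the entry of pyruvate into the mitochondrion 0 of 8 genes rose, 3 fell and 5 did not pass. Of all tested genes 7.89% rose and 10.6% fell, and whether any branch differs from them was not tested. Pdk1, a kinase that inactivates the pyruvate dehydrogenase complex, had log2 values of 8.20 and 7.79 in TGF-beta1, against 8.42 and 8.73 in low glucose. Both TGF-beta1 arrays were below both low glucose arrays, although the arrays within each group lay further apart than those of Hk2. Pdk1 fell by 0.58 ± 0.068 (1.49-fold; limma adjusted p = 2.17e-15), with -0.63 and -0.52 within the pairs. On its other kept probe sets it fell by 0.47 ± 0.067 and 0.29 ± 0.065.

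Pdk2, the broadly expressed kinase of the same family, had log2 values of 7.56 and 7.62 in TGF-beta1, against 8.14 and 7.80 in low glucose. The groups did not overlap. Pdk2 fell by 0.38 ± 0.064 (limma adjusted p = 1.11e-07), with -0.52 in pair 1 and -0.24 in pair 2, the value without either array of pair 1. Pdk3 and Pdk4 did not pass, at 0.10 ± 0.078 and -0.04 ± 0.070. Genes of the complex itself did not pass either: Pdha1, whose product these kinases phosphorylate, and Pdhb and Dlat, which encode other subunits, were at 0.01 ± 0.076, -0.08 ± 0.071 and -0.10 ± 0.077.

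Pcx, pyruvate carboxylase, had log2 values of 8.01 and 8.24 in TGF-beta1, against 8.75 and 8.21 in low glucose. The groups overlapped, with low glucose replicate 1 standing above the other 3 arrays. Pcx fell by 0.35 ± 0.068 (limma adjusted p = 6.73e-06), with -0.50 in pair 1 and -0.20 in pair 2, the value without either array of pair 1. Pcx and Aqp1, a tubule marker given above, both fell, and the part of tubule-type RNA in the fall of Pcx was not tested.

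None of the 5 pentose phosphate genes passed, against 18.5% of all tested genes. Pgd, an oxidative enzyme of the pathway that yields NADPH, had log2 values of 11.42 and 11.46 in TGF-beta1, against 11.37 and 11.22 in low glucose. The groups did not overlap, but the difference of 0.15 ± 0.066 did not pass (limma adjusted p = 0.108). Pgls, the lactonase before it, was at -0.09 ± 0.082. The non-oxidative genes Tkt, Taldo1 and Rpia, which exchange sugars between this pathway and glycolysis, were at -0.02 ± 0.048, 0.00 ± 0.079 and -0.11 ± 0.082.

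Of 15 genes of the TCA cycle and its cytosolic counterparts 0 rose, 1 fell and 14 did not pass, against 7.89% higher and 10.6% lower over all genes. The gene that fell was Idh1, the cytosolic isocitrate dehydrogenase that makes NADPH, which acts outside the mitochondrial cycle. Idh1 had log2 values of 9.63 and 9.45 in TGF-beta1, against 9.88 and 10.04 in low glucose. The groups did not overlap, and the difference was nearly the same in both pairs, at -0.44 and -0.41. Idh1 fell by 0.42 ± 0.083 (1.34-fold; limma adjusted p = 7.23e-06), and its other probe set fell by 0.35 ± 0.079. The mitochondrial enzyme Idh2 was at -0.10 ± 0.073.

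All 15 genes of this branch had fitted differences below 0, between -0.42 and -0.0048, with a median of -0.09. Within pair 1, 13 of the 15 were below 0, and within pair 2, 11 were. The 15 signs were the same with the authors' scaling and with median centring. Once probe sets whose suffix marks a possible match to several transcripts were left out, 11 of the 15 could be tested. Idh2 and Idh3a were then above 0, at 0.09 and 0.06. The probe sets read there were dimmer, with mean log2 values of 7.36 for Idh2 and 7.97 for Idh3a, against 10.95 and 10.34. Signs also turned when 1 array was left out. Without the block, 7 of the 15 were above 0 without TGF-beta1 replicate 2 and 7 without low glucose replicate 2. Cs was the highest there, at 0.21 and 0.17. Such fits mix the group with the array pair, and 9 of the 15 genes were higher and 3 lower in pair 2 than in pair 1. With the block kept, 4 and 2 of the 15 were above 0 without these arrays. Suclg2, a succinate-CoA ligase subunit, came closest to the threshold. It had log2 values of 9.81 and 9.75 in TGF-beta1, against 9.85 and 10.12 in low glucose, which did not overlap. Its difference was -0.21 ± 0.082 (limma adjusted p = 0.0594), with -0.10 in pair 1, the value without either array of pair 2, and -0.31 in pair 2. Its other probe set fell by 0.25 ± 0.081.

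The remaining cycle genes did not pass, the lowest of them being Sucla2, another succinate-CoA ligase subunit, at -0.16 ± 0.081. Cs, citrate synthase, was at -0.03 ± 0.074, and Mdh2 and Fh1, which regenerate oxaloacetate from fumarate, were at -0.04 ± 0.054 and -0.09 ± 0.071. Ogdh and Dlst, subunits of the oxoglutarate dehydrogenase complex, were at -0.11 ± 0.082 and -0.0048 ± 0.082. Mdh1, the cytosolic malate dehydrogenase, was at -0.06 ± 0.057 on its brightest probe set, while 1 other fell by 0.19 ± 0.066 and 1 rose by 0.17 ± 0.066.

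**Figure D3:**
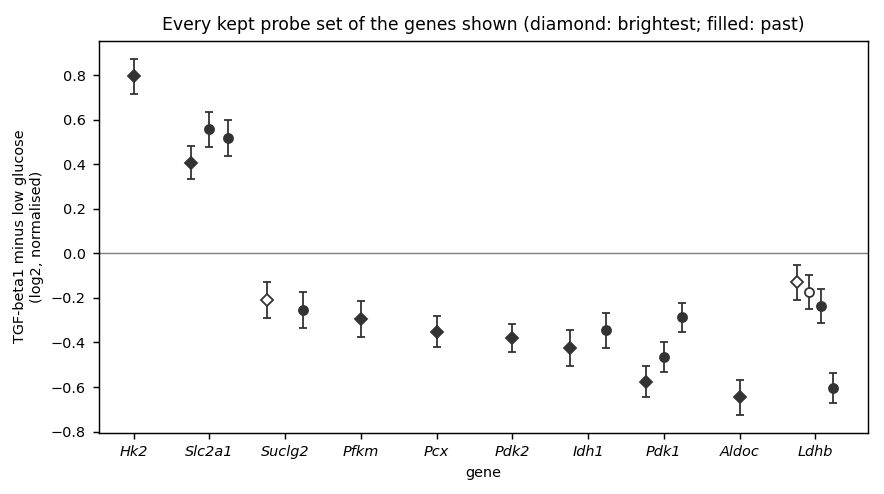
Difference between TGF-beta1 and low glucose (y axis, log2) for every probe set above the dimness filter of 10 genes (x axis), with limma standard errors. Diamonds are the brightest probe set, filled symbols had an adjusted p under 0.05 when all kept probe sets were tested, and the probe sets of Slc2a1, Pdk1 and Idh1 lie on the same side of 0 while those of Ldhb range between -0.60 and -0.13.

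Testing all 97 kept probe sets of the members showed 5 that rose and 13 that fell, a share of 18.6%, close to the 17.6% of all 23222 kept probe sets, of which 1744 (7.51%) were higher and 2332 (10%) lower. The 5 were the 3 probe sets of Slc2a1, that of Hk2 and 1 of Mdh1, and the 13 belonged to the 6 genes that fell and to Ldhb, Suclg2 and Mdh1.

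Of 55 further genes of the same pathways 40 could be tested, with 2 that rose, 5 that fell and 33 short of the threshold, and their median was -0.01. Their share of calls, 17.5%, was also close to the 18.5% of all genes. Pdp1, a phosphatase that reactivates pyruvate dehydrogenase, fell by 0.26 ± 0.067 (limma), and Pdpr, the regulatory subunit of that phosphatase, by 0.23 ± 0.066. Pdp2, which encodes the other catalytic form of that phosphatase, was at -0.15 ± 0.068 and did not pass. Slc2a8, an intracellular glucose transporter, fell by 0.33 ± 0.073, Fbp2, a fructose bisphosphatase of muscle, by 0.37 ± 0.064 and Pgm1, a phosphoglucomutase, by 0.25 ± 0.081. Fbp1, the fructose bisphosphatase of liver and kidney, rose by 0.24 ± 0.076 on a probe set close to the filter, with a mean log2 value of 6.97, and Gpd1, a cytosolic glycerol phosphate dehydrogenase, rose by 0.19 ± 0.065. Pkm, pyruvate kinase, was at 0.04 ± 0.055, and the succinate dehydrogenase genes Sdha, Sdhb, Sdhc and Sdhd were between -0.18 and -0.07 without passing.

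More members passed between the array pairs than between TGF-beta1 and low glucose, a comparison chosen after the values were seen. The same held for all genes, of which 66.5% passed between the pairs and 18.5% between the groups. In the same limma fit 18 of the 45 members were higher and 14 lower in array pair 2 than in array pair 1, and 13 did not pass. Of all genes 34.7% were higher and 31.8% lower. The TCA branch was mostly higher in pair 2, in 9 of 15 genes, with 3 lower and a median of 0.23. Cs was 0.44 ± 0.074 higher there and Mdh1 0.28 ± 0.057, while Ogdh was at -0.45 ± 0.082. Upper glycolysis had 0 of 9 genes higher in pair 2 and 3 lower, with Pfkl at -0.67 ± 0.079, Aldoa at -0.34 ± 0.052 and Hk1 at -0.24 ± 0.070. Ldha and Pgk1 were lower in pair 2 as well, at -0.27 ± 0.054 and -0.34 ± 0.059. Hk2, Aldoc, Idh1 and Pfkm did not pass between the pairs, at -0.12 ± 0.082, 0.07 ± 0.079, 0.17 ± 0.083 and -0.08 ± 0.083. Slc2a1, Pdk1, Pdk2 and Pcx differed both between the pairs and between TGF-beta1 and low glucose. Of all genes, 1775 of the 2503 that passed between TGF-beta1 and low glucose also passed between the pairs. The labels do not say what the array pairs stand for.

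**Figure D4:**
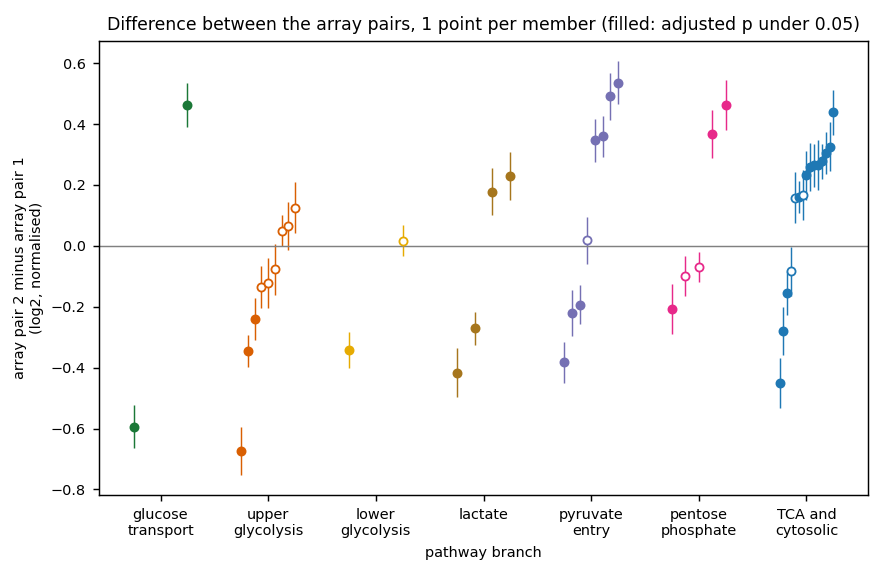
Difference between array pair 2 and array pair 1 (y axis, log2) for each tested member, with limma standard errors, by pathway branch (x axis). Filled points had an adjusted p under 0.05; most TCA points lie above 0 (median 0.23), no filled upper glycolysis point does, and pyruvate entry, lactate and pentose phosphate genes lie on both sides.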

How the data were processed

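The authors deposited 1 linear intensity per probe set and array, for 45101 probe sets on 4 arrays. Their probe summary and array scaling are not stated in the labels. Of these probe sets 64 were controls, 34945 had 1 gene symbol in the platform annotation, 932 several and 9160 none. The 25th percentile of all values (46.88) was added, log2 taken and the arrays quantile normalised. Probe sets with a mean log2 value under the 40th percentile (6.85) were left out, and the brightest stood for each gene. Differences were tested in limma 3.58.1 (R 4.3.3, lmFit, then eBayes with the variance trended on intensity, two-sided tests) with the array pair as a block and Benjamini-Hochberg adjustment over all 13565 genes. The fit left 1 residual degree of freedom and its prior was infinite, so standard errors depend on brightness only. The pairs come from the spike-ins. Across genes the arrays of a pair correlated at 0.988 (pair 1) and 0.990 (pair 2), and those of a group at 0.955 each. In the titles, an unnumbered repeat tag is shared by the arrays of pair 1, and its meaning is not given. Members past the threshold, or with a difference of at least 0.2, were named with values per array. Scripts were tested on simulated data. The members, lists, markers and block were chosen with earlier results of these data known. Promoter windows came from RefSeq tables.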

Additional observations from a re-analysis of the deposited data

How the results depend on the processing

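The same 8 members passed with either other pseudocount, with a floor in its place, with no filter on dim probe sets and with every kept probe set tested. With the authors' scaling, median centring or a filter at the 60th percentile Suclg2 also fell. Leaving out probe sets that may match several transcripts left 31 members, of which 2 rose and 4 fell, Mdh1 now among them at -0.19, while Aldoc, Idh1 and Pcx could not be tested. The calls depend on the block. With no replicate block, and with the block but the prior of the fit without it, 0 genes and 0 members were called in either direction. Leaving out 1 array without the block called between 0 and 11 genes higher and between 0 and 6 lower, and 0 members, the lone array being assumed to vary like the other group. The median over the members was -0.073 with the authors' scaling and -0.099 with median centring, and ranged between -0.137 and -0.034 over all fits without 1 array. In those without the block, the named members kept their direction, with Slc2a1 between 0.14 and 0.68, Hk2 between 0.72 and 0.87, Pcx between -0.61 and -0.08, Pdk1 between -0.76 and -0.38 and Suclg2 between -0.34 and -0.08. Of the other 36 members 29 changed sign in at least 1 of these fits, and 17 had opposite signs in the pairs. Fits without the block and without 1 array mix the group with the array pair. Precision is limited by 2 arrays per group.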
